A study of Mus musculus with 6 samples.

Results

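The genes described here encode the translation initiation factor Eif4h, the eIF4A RNA helicases Eif4a1, Eif4a2 and Eif4a3, the second helicase cofactor Eif4b and the helicase inhibitor Pdcd4. They were chosen by name, as the 6 genes of 18193 named on the array that make up this helicase group. No rule on measured values was applied, but earlier results of these data were known when they were chosen. All probe sets to which the platform annotation gives a single symbol from this group were taken, which gave 15 probe sets of 45037: 6 for Eif4h, 3 for Eif4a1, 3 for Eif4b and 1 each for Eif4a2, Eif4a3 and Pdcd4. No member was lost to a filter on low signal, because none was applied.

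An eIF4A helicase binds mRNA in the eIF4F complex at the cap and unwinds structure in the 5′ untranslated region, so that the small ribosomal subunit can load and scan. Eif4a1 and Eif4a2 are closely related paralogues that both enter eIF4F, whereas Eif4a3 sits on spliced mRNA as the core of the exon junction complex. On its own eIF4A is a weak enzyme. Eif4b and Eif4h, which share an RNA recognition motif, stimulate it, and Pdcd4 holds it in an inactive form until Pdcd4 is phosphorylated and degraded.

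The cells were mouse embryonic stem (ES) cells of the line EBRTcH3, grown with the leukemia inhibitory factor (LIF), in which a transgene was placed at ROSA26. The transgene was the coding part of human WBSCR1, the human name of EIF4H, joined to a 3xFLAG tag and without its untranslated regions, and its promoter is shut while tetracycline is present. Puromycin-resistant colonies were picked, and 3 lines, each grown from 1 clone and named A1, A3 and A4, were profiled on Affymetrix mouse whole-genome arrays. Each clone gave 1 control array (T0, tetracycline present) and 1 induced array (T24, 24 h after tetracycline was withdrawn), so there were 6 arrays, 3 per condition and 2 per clone. All 6 carried the transgene, so an effect of the transgene and an effect of withdrawing tetracycline cannot be told apart. Which of the Eif4h probe sets could also detect the human sequence was not analysed here, and a signal from mouse Eif4h and one from the transgene cannot be told apart in a probe set that detects both.

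Values are log2 signals of the robust multiarray average (RMA), so a difference of 1 is a change of signal by a factor of 2, and array medians lay between 5.11 and 5.19. All 10 ES cell markers were above 8 log2 on every array, with Pou5f1, the pluripotency factor Oct4, at 12.83 to 12.93 and Nanog at 12.15 to 12.40. Of these 10 markers 1, the pluripotency factor Klf4, was called lower in A3, a call that 5.68% of all probe sets had. Its difference (A3 minus the mean of A1 and A4) was -0.51 log2 (limma adjusted p = 0.0384), and Esrrb was at -0.45 (0.0504). Of 8 fibroblast and feeder markers, 6, the collagens Col1a1, Col1a2 and Col3a1 among them, lay below the array medians on every array, and the summed level of the 8 was 10.60 to 11.11, with Fn1, a matrix protein that other cells also make, at 10.36 to 10.92. Of 6 primitive endoderm markers none reached 8 log2, but their summed level was 7.55 to 7.68 on the A3 arrays against 8.09 to 8.74 on the other 4. In A3, 5 of the 6 were called lower, against 5.68% of all probe sets. Apart from Dab2, at 5.71 to 7.47 log2, these markers were dim, at 4.31 to 6.26 log2, near the array medians. The 5 mesoderm and neural markers measured also stayed below 8 log2, with a summed level of 8.38 to 8.58. The 3′ minus 5′ signal of the Actb control, a sign of RNA quality, was also lower on the A3 arrays (0.32 and 0.29 log2) than on the others (0.40 to 0.45), whereas that of Gapdh overlapped, at -0.0073 and 0.078 on the A3 arrays and 0.054 to 0.10 on the others. The 18S rRNA control read 6.61 and 7.27 log2 on the A3 control and induced arrays and 7.03 on the A1 induced array. On the A1 control array and both A4 arrays it read 5.66 to 5.99. The endoderm markers and the Actb measure moved with clone A3, as did Klf4, 1 of the 10 ES cell markers. Their part, and that of the 18S rRNA signal, in the differences given below was not tested.

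On induction 0 of the 15 probe sets passed the test. In the test of A3 against A1 and A4, 1 of the 15 passed, as did 9.57% of all probe sets. By the order of the arrays alone, induced and control arrays overlapped in all 15, and in 5.53% of all probe sets they did not. Between clones, 8 of the 15 had both A3 arrays below all 4 arrays of A1 and A4. These were 5 of the 6 Eif4h probe sets, the Eif4a2 probe set and 2 of the 3 Eif4b probe sets. Such an order was common on these arrays, since 16.6% of all probe sets had both A3 arrays below the other 4. In RNA from whole cultures, fewer cells of a type and less RNA per cell cannot be told apart. The plot of the 15 signals shows both the small spread between arrays and the position of A3.

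**Figure D1:**
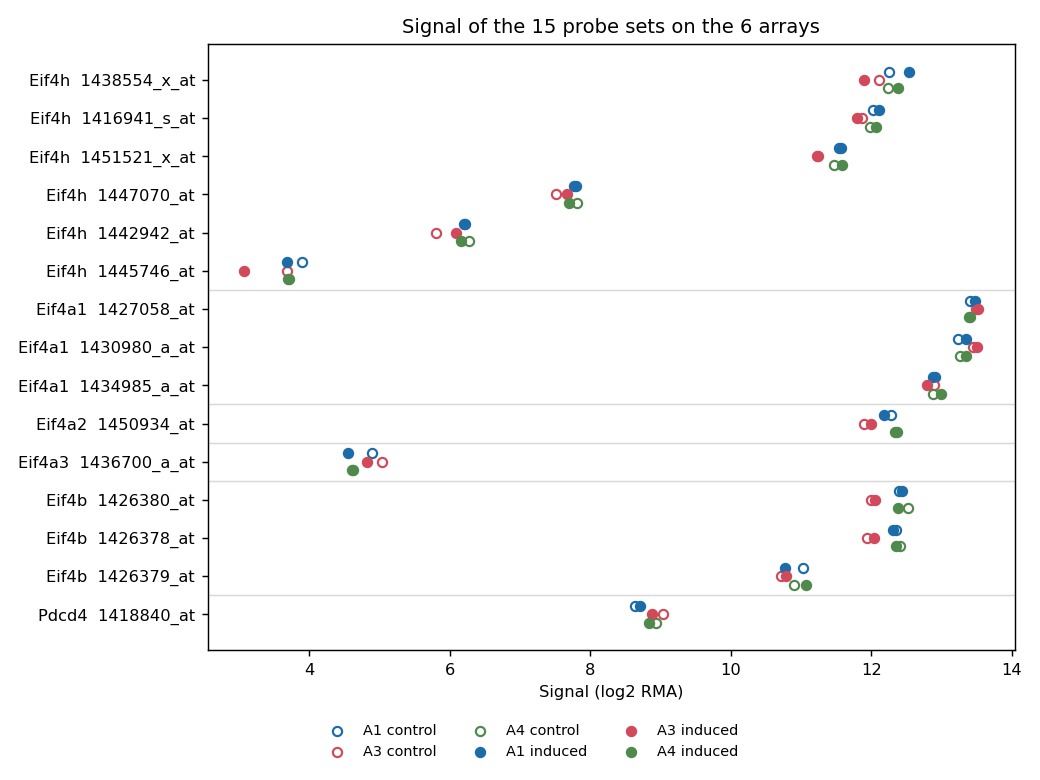
Signal (log2 RMA, horizontal) of each of the 15 probe sets (vertical) on the 6 arrays, with open circles for control and filled circles for induced arrays and 1 colour per clone; positions of different probe sets are not amounts of RNA. The brightest Eif4b, Eif4a2 and Eif4h probe sets had their A3 arrays at 11.89 to 12.10 log2, left of the A1 and A4 arrays of the same probe set.

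The upstream sequences of 4 members are shown because both A3 arrays of their brightest probe set stood on 1 side of the others. They stood below for Eif4h, Eif4a2 and Eif4b and above for Eif4a1. Of all probe sets, 16.6% had both A3 arrays below the others and 19.8% above. In Eif4h 1445746_at, Eif4a1 1434985_a_at and Eif4b 1426379_at the A3 arrays overlapped the others. Each sequence is the 250 bases before the RefSeq start of the gene, read 5′ to 3′ on the strand of the gene, in build GRCm38.p6. Eif4h lies on the minus strand at chr5:134619872-134639409 and its upstream window at chr5:134639410-134639659. For Eif4a1, also on the minus strand, the gene is at chr11:69666936-69672423 and the window at chr11:69672424-69672673. Eif4a2 is on the plus strand at chr16:23107468-23114132, with the window at chr16:23107218-23107467, and Eif4b on the plus strand at chr15:102073773-102097173, with the window at chr15:102073523-102073772. Capitals mark the E-box CACGTG, which factors such as Myc read, and the CCAAT box (CCAAT, or ATTGG on the other strand).
Eif4h: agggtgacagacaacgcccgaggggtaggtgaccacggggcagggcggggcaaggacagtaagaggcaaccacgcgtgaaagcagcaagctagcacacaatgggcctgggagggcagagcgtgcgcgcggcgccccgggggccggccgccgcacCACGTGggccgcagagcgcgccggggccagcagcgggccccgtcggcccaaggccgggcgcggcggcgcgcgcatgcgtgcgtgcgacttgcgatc
Eif4a1: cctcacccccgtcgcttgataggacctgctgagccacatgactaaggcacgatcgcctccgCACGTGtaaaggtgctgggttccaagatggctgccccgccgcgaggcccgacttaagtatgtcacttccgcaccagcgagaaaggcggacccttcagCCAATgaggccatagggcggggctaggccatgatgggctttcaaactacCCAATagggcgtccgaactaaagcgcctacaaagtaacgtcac
Eif4a2: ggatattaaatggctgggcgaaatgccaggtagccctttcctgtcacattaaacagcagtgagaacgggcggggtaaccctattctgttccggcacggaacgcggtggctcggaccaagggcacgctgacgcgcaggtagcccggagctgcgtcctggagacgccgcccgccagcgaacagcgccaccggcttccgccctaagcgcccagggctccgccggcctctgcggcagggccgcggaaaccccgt
Eif4b: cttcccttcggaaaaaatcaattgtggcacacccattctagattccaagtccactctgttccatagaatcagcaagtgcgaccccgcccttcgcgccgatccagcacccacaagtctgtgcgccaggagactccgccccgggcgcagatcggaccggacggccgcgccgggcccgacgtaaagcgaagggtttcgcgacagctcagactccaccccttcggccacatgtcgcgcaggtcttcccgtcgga

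The E-box was found in Eif4h at -96 and in Eif4a1 at -189, counted back from -1 at the base before the start, and in 6.02% of all 32851 RefSeq upstream windows of this length. The CCAAT box was found in Eif4a1 at -92 and -43 and in 33.8% of all windows. Pdcd4, whose windows are not printed, also had it, at -28 and, as ATTGG, at -55. Searched in the same way, the GC box (GGGCGG, or CCGCCC) was present in at least 1 window of all 6 members, as in 32.7% of all windows. TATAAA, or TTTATA on the other strand, was in none of the 7 windows of the members and in 12.4% of all windows. The windows were rich in G and C, from 58.8% in Eif4a1 to 74.8% in Eif4h among those printed. The 3 members whose brightest probe set had lower A3 arrays shared neither the E-box nor the CCAAT box.

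Among the helicases, the steadiest probe set belonged to Eif4a1, the paralogue that takes the larger part in eIF4F in most growing cells. Its brightest probe set, 1427058_at, read 13.40, 13.49 and 13.39 log2 on the A1, A3 and A4 control arrays and 13.47, 13.52 and 13.40 on the induced arrays. The 6 arrays spanned 0.13 log2, against a median span of 0.41 log2 over the 17327 probe sets with a mean of at least 6 log2. Eif4a1 probe sets 1430980_a_at and 1434985_a_at spanned 0.26 and 0.21 log2. Because 1427058_at was brighter than 99.7% of probe sets, its span may not compare with those of dimmer ones, which was not tested. The change on induction was 0.037 ± 0.089 log2 (SE), with a 95% interval of -0.17 to 0.24, and the conditions overlapped.

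The second Eif4a1 probe set, 1430980_a_at, read 13.24, 13.45 and 13.26 log2 in control and 13.34, 13.50 and 13.35 in induced arrays. All 3 clones were higher when induced, by 0.10, 0.048 and 0.095 log2, but both A3 arrays were higher still and the conditions overlapped. The third, 1434985_a_at, read 12.91, 12.89 and 12.88 log2 in control and 12.87, 12.78 and 12.99 in induced arrays. Here the A3 induced array was the lowest and the A4 induced array the highest, so the 3 probe sets did not order the clones in the same way. In the first 2 probe sets both A3 arrays were above the other 4, as in 19.8% of all probe sets, and the difference of A3 from the mean of A1 and A4 was 0.085 ± 0.096 log2 (SE, limma adjusted p = 0.644) and 0.18 ± 0.096 (0.306). In the third it was -0.073 log2 (0.718).

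Eif4a2, the other eIF4F helicase, which also works with the CCR4-NOT complex in repression, differed more between clones. Probe set 1450934_at read 12.28, 11.89 and 12.37 log2 in control and 12.18, 12.00 and 12.34 in induced arrays. The clones did not overlap: both A4 arrays were the highest, both A1 arrays lay between, and both A3 arrays were the lowest. A3 was 0.35 ± 0.10 log2 (SE) below the mean of A1 and A4, a signal difference of -21.5% (difference -0.35 log2, 95% interval -0.58 to -0.12), with an adjusted p of 0.0726 in limma. A4 was 0.27 ± 0.10 log2 above the mean of A1 and A3 (unadjusted p = 0.029, limma adjusted p = 0.365). On induction the signal changed by -0.0036 ± 0.15 log2 (-0.36 to 0.35), with A3 at 0.11 and A1 and A4 at -0.091 and -0.028.

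Eif4a3, the exon junction helicase, was read by a dim probe set. 1436700_a_at read 4.90, 5.03 and 4.61 log2 in control and 4.56, 4.83 and 4.62 in induced arrays, below the median of each array. The A1 control and A3 control arrays were the highest and the conditions overlapped, with a change on induction of -0.18 ± 0.14 log2 (SE, -0.50 to 0.14). A second probe set, 1417242_at, is annotated to both Gm5576 and Eif4a3 and was therefore not counted as a member; it read 12.17 to 12.34 log2.

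Probe sets differ in how well they bind, so the order of the signals of the 3 helicases is not an order of their RNA amounts, and no ranking of the paralogues was read from it. What can be compared is how the difference between a pair of probe sets on 1 array varied between arrays. The Eif4a1 probe set minus the Eif4a2 probe set was 1.13, 1.60 and 1.02 log2 in the A1, A3 and A4 controls and 1.29, 1.52 and 1.06 in the induced arrays. Both A3 values were above the other 4 in each condition, while the induced and control values overlapped, with means that differed by 0.041 log2 (exact permutation test over arrays, two-sided, p = 0.9, adjusted over the 5 pairs p = 1). With 3 arrays against 3 the smallest p this test can give is 0.1, so no shift of any size could pass 0.05 and these p-values say nothing about stability. The pair of Eif4a1 and Eif4a3 was tested with the others but is not read here, because the Eif4a3 probe set lay below the median of each array.

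Among the cofactors, Eif4h itself is the mouse counterpart of the transgene. Its brightest probe set, 1438554_x_at, read 12.25, 12.10 and 12.23 log2 in the A1, A3 and A4 control arrays and 12.53, 11.89 and 12.38 in the induced arrays. A1 and A4 were higher when induced, by 0.28 and 0.15, and A3 lower by 0.21 (change -0.21), so the induced arrays held both the highest and the lowest value. The group means were 12.19 ± 0.081 and 12.27 ± 0.33 log2 (SD, n = 3), and the change was 0.074 ± 0.17 (SE). Its 95% interval, -0.32 to 0.46 log2, leaves room for a signal from 0.804 to 1.38 times that of the controls.

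Probe set 1416941_s_at read 12.03, 11.86 and 11.98 log2 in control and 12.11, 11.80 and 12.07 in induced arrays. The clones moved as in the brightest probe set, by 0.083, -0.061 and 0.091, over a narrower range (0.31 against 0.64 log2). Probe set 1451521_x_at read 11.54, 11.23 and 11.47 log2 in control and 11.57, 11.23 and 11.58 in induced arrays. All 3 clones were higher when induced in this probe set, by only 0.035, 0.0073 and 0.10 log2, and both A3 arrays lay below the other 4.

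The other 3 Eif4h probe sets were dimmer and moved in other directions. 1447070_at read 7.80, 7.52 and 7.81 log2 in control and 7.77, 7.68 and 7.69 in induced arrays. 1442942_at read 6.21, 5.80 and 6.28 log2 in control and 6.22, 6.09 and 6.16 in induced arrays. In both, A3 was higher when induced (by 0.16 and 0.29) and A4 lower (-0.12 and -0.11), the opposite of the brightest probe set. 1445746_at, below the array medians throughout, read 3.91, 3.68 and 3.70 log2 in control and 3.68, 3.08 and 3.72 in induced arrays. Probe sets annotated to Eif4h thus did not follow a single pattern on induction, with 5 of 6 higher and 1 lower on average.

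Between clones the 6 Eif4h probe sets pointed the same way. All 6 had a negative difference for A3, and in all but the dimmest both A3 arrays lay below the other 4. The difference was -0.35 ± 0.12 log2 (SE) for 1438554_x_at, -0.21 ± 0.099 for 1416941_s_at and -0.31 ± 0.096 for 1451521_x_at, which are signal differences of -21.6%, -13.8% and -19.2%. None of these passed the test over all probe sets, with limma adjusted p-values of 0.129, 0.234 and 0.0939. For the 3 dimmer probe sets the difference was -0.17 to -0.37 log2, with adjusted p from 0.144 to 0.370. The size rested on which A3 array was read. For 1438554_x_at it was -0.14 log2 (adjusted p = 0.731) without the induced A3 array and -0.56 (0.0688) without the control A3 array, and for 1416941_s_at -0.14 and -0.29. The dimmer 1447070_at and 1442942_at went the other way, to -0.057 and -0.10 without the control A3 array and -0.28 and -0.44 without the induced one, whereas 1451521_x_at stayed at -0.28 and -0.34. The 6 probe sets share the RNA of the same arrays and are not replicates of each other. These numbers include any transgene signal in the probe sets that detect it.

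Eif4b, the cofactor that also helps eIF4A work on long structured leaders, held the only probe set of the group that passed a test. 1426380_at read 12.39, 11.99 and 12.52 log2 in the A1, A3 and A4 control arrays and 12.44, 12.05 and 12.38 in the induced arrays. Both A3 arrays lay below every other array, and the arrays of A1 and A4 overlapped. A3 was below the mean of A1 and A4 by 0.41 ± 0.10 log2 (SE; difference -0.41, 95% interval -0.65 to -0.18), a signal difference of -24.9%, with a limma adjusted p of 0.0435. It was 1 of 15 members called in this contrast, where 9.57% of all probe sets were called and 5.68% were called lower in A3. The share among the members was thus close to that over all probe sets, a base that includes many dim ones. In a fit of probe sets brighter than the median, 4 of 13 members and 4525 of 22518 probe sets were called. The call was lost whenever any single array was left out, with a difference of -0.47 to -0.36 log2 and an adjusted p of 0.0656 to 0.201, and after quantile normalization again (0.0528), cyclic loess (0.0566) or array weights (0.0535).

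The other Eif4b probe sets showed A3 low with less separation. 1426378_at read 12.35, 11.94 and 12.41 log2 in control and 12.31, 12.04 and 12.35 in induced arrays. Both A3 arrays were again the lowest, 0.36 ± 0.099 log2 (SE) below the mean of A1 and A4 (difference -0.36, limma adjusted p = 0.0605). 1426379_at read 11.03, 10.71 and 10.90 log2 in control and 10.77, 10.78 and 11.06 in induced arrays. In that probe set the A1 induced array was as low as the A3 arrays, and the difference of A3 was -0.20 ± 0.12 (adjusted p = 0.355). On induction the 3 probe sets changed by -0.011, -0.0011 and -0.0078 log2, the first with an interval of -0.40 to 0.38.

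Pdcd4, the inhibitor that competes with eIF4G and RNA for eIF4A, had another order of clones. Probe set 1418840_at read 8.64, 9.04 and 8.94 log2 in control and 8.71, 8.88 and 8.84 in induced arrays. Both A1 arrays were the lowest, 0.25 ± 0.10 log2 below the mean of A3 and A4 (A1 minus the others -0.25, unadjusted p = 0.039, limma adjusted p = 0.372). It was the only member of the 15 with an unadjusted p under 0.05 for A1, a share below the 12.4% of all probe sets with such a p, and the contrast called 0 members and 0.666% of all probe sets. The A3 arrays were higher than the mean of A1 and A4 by 0.18 ± 0.10 log2 (adjusted p = 0.334). On induction A1 changed by 0.063 and A3 and A4 by -0.16 and -0.10, a mean change of -0.066 ± 0.13 log2 (-0.36 to 0.23).

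Set against the Eif4a1 probe set of the same array, the cofactors differed between clones as their own signals did. Eif4h minus Eif4a1 was -1.15, -1.38 and -1.16 log2 in the A1, A3 and A4 controls and -0.94, -1.63 and -1.03 in the induced arrays. A1 and A4 were higher when induced and A3 lower, and the mean change of 0.036 had an exact permutation p of 1 (adjusted p = 1). Eif4b minus Eif4a1 was -1.01, -1.50 and -0.87 log2 in control and -1.03, -1.47 and -1.03 in induced arrays, a mean change of -0.048 (exact permutation p = 0.8, adjusted p = 1). Both A3 values lay below the other 4 there, as they did for Eif4h minus Eif4a1. Pdcd4 minus Eif4a1 was -4.76, -4.45 and -4.45 log2 in control and -4.76, -4.64 and -4.57 in induced arrays, a mean change of -0.10 (exact permutation p = 0.5, adjusted p = 1), and the A1 values were the lowest in both conditions.

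**Figure D2:**
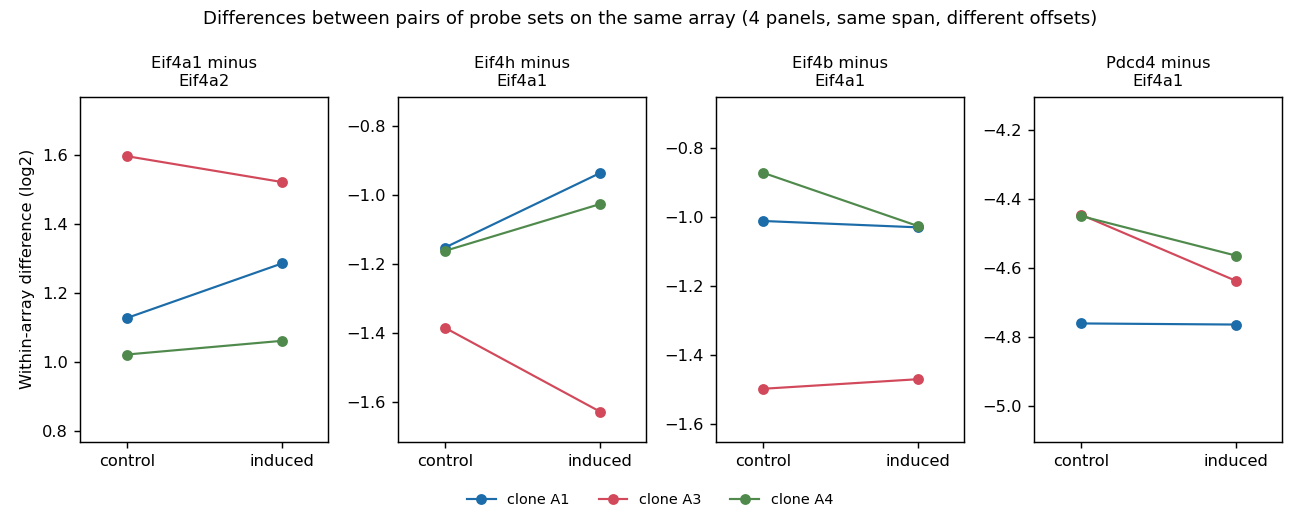
Difference between the brightest probe sets of 2 genes on the same array (log2, vertical) in the control and induced array of each clone, 1 panel per pair and 1 line per clone; the offset of a panel reflects probe binding and is no ratio of RNA. Clone A3 lay apart for Eif4a1 minus Eif4a2 (1.60 and 1.52 against 1.02 to 1.29) and for Eif4b minus Eif4a1 (-1.50 and -1.47 against -1.03 to -0.87). It also lay apart for Eif4h minus Eif4a1 (-1.38 and -1.63 against -1.16 to -0.94). Control and induced values overlapped in all 4 panels.

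Over the whole group, 7 of the 15 probe sets were higher and 8 lower on average after induction. The limma test called 0 of 15 at an adjusted p of 0.05, and percent called over all probe sets was 0. An unadjusted p under 0.05 was found for 0 of the 15 and for 1.5% of all probe sets. For the members the same counts of 0 and 0 were obtained with the clone as a block, where 1539 of 45037 probe sets had such a p. The methods' t-test gave 0 members at an unadjusted p under 0.05, and 1096 of 45037 probe sets. The adjusted p was 0.999942 for every member. The median change was -0.0011 log2 over the members and -0.0031 over all probe sets. In 3 probe sets, Eif4h 1451521_x_at and 2 of Eif4a1, all 3 clones were higher when induced, and in none were all 3 lower. Induced and control arrays overlapped in all 15, where 5.53% of all probe sets had conditions that did not overlap. Over the 13 members that were not dim, the 95% intervals reached from -0.40 to 0.46 log2 at their widest. With the clone as a block, which sets the arrays of a clone against each other, they reached from -0.29 to 0.34, and that of Eif4b 1426380_at narrowed to -0.23 to 0.21.

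**Figure D3:**
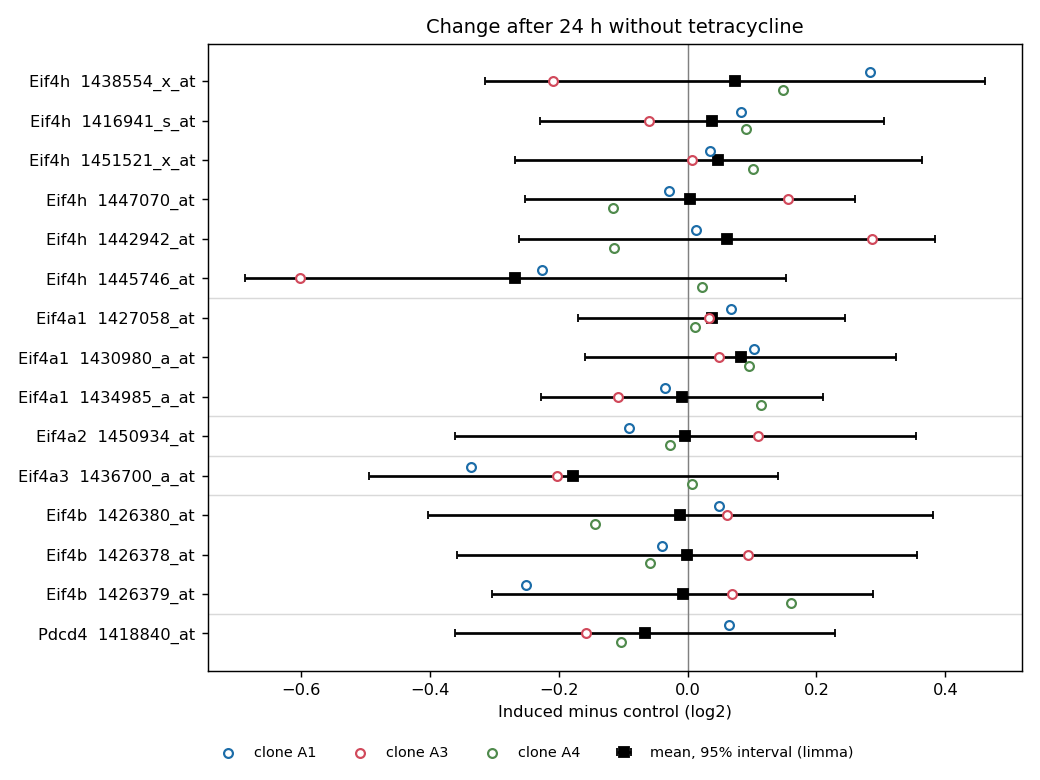
Change on induction (induced minus control, log2, horizontal) of each of the 15 probe sets, with open circles for the clones, a square for the mean and a bar for the 95% interval of limma (n = 3 arrays per condition). All 15 bars cross 0, and for Eif4h 1438554_x_at clone A1 (0.28) and clone A3 (-0.21) lie on opposite sides.

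Between clones, the F test of limma called 0 of the 15 members, and 5.54% of all probe sets were called. An unadjusted p under 0.05 was found for 4 of the 15 and for 19.3% of all probe sets. The smallest adjusted p among them was 0.118, for Eif4b 1426380_at, followed by 0.153 for Eif4b 1426378_at, 0.162 for Eif4a2 and 0.226 for Eif4h 1451521_x_at. In the contrast of A3 with A1 and A4, 8 of the 15 members had an unadjusted p under 0.05, as did 24.4% of all probe sets. In a separate fit of probe sets brighter than the median, 8045 of 22518 had such a p, and the count of members in that fit is not given here. The median difference of A3 was -0.21 log2 over the 15 probe sets, of which 6 are of Eif4h and 3 of Eif4b, and 0.031 over all probe sets. By the brightest probe set of each gene, 3 members were lower (Eif4h, Eif4a2 and Eif4b) and 3 higher (Eif4a1, Eif4a3 and Pdcd4). The Eif4a3 probe set was dim, below the median of each array. The bright 1417242_at, shared with Gm5576, was not higher in A3. It read 12.17 and 12.21 log2 on the A3 arrays and 12.20 to 12.34 on the A1 and A4 arrays. In the contrast of A4 with A1 and A3, 0 members and 0.486% of all probe sets were called, and an unadjusted p under 0.05 was found for 1 of the 15 and for 11.0% of all probe sets. The number of arrays in a clone, 2, limits all of these tests, and a p that missed the threshold does not show that the clones were alike.

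**Figure D4:**
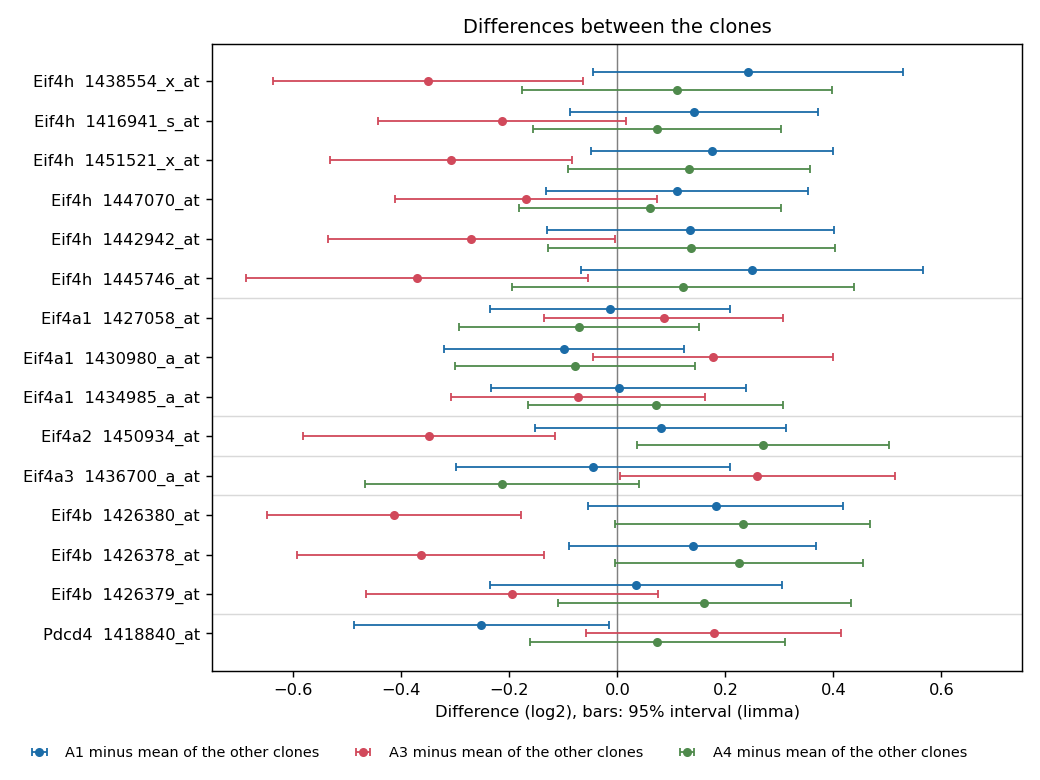
Each clone minus the mean of the remaining clones (log2, horizontal) for each of the 15 probe sets, with bars for the 95% interval of limma (2 arrays per clone, fitted with condition). A3 lies left of 0 for all 6 Eif4h probe sets, Eif4a2 and all 3 of Eif4b, and right of 0 for 2 of 3 Eif4a1 probe sets, Eif4a3 and Pdcd4.

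Genes whose 6 values ran most like those of a member are named as a description, by Pearson r over the 6 arrays among 15911 probe sets with a mean of at least 6 log2. Arrays of a clone share their source, and high r is common over so few arrays. For Eif4h these were Ccnc (r = 0.999) and Sypl (0.998), with 6.25% of the candidates above 0.9. Eif4b was most like Kpna4 (0.999) and Man1b1 (0.998), with 8.67% above 0.9, and Eif4a2 most like 1700037H04Rik (0.995) and Sfrp1 (0.995), with 5.34%. For Eif4a1 they were Tbc1d15 (0.997) and Gnpnat1 (0.995), with 3.83%. Pdcd4, at 0.990 with Amigo2 and 0.986 with Eif1b, and Eif4a3, at 0.985 with both Pdap1 and Tmem214, had far fewer such probe sets, 48 and 72.

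The surrounding pathway was read from 4 lists with 43 genes, of which 34 had a probe set with a single symbol. On induction limma called 0 of the 34, and 16 were higher and 18 lower, with a median change of -0.0026 log2. An unadjusted p under 0.05 was found for 1 of the 34 and for 1.5% of all probe sets. The gene with the small p was Eif4g3, a scaffold of eIF4F that brings eIF4A to the cap-binding protein. It read 7.87, 7.58 and 7.86 log2 in the A1, A3 and A4 controls and 7.59, 7.34 and 7.41 in the induced arrays. All 3 clones were lower when induced (-0.28, -0.24 and -0.46), although the A3 control array lay just below the A1 induced array. The change was -0.33 ± 0.12 log2 (SE, unadjusted p = 0.030, limma adjusted p = 0.999942).

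Of the 12 measured eIF4F partners and their regulators, 7 were higher and 5 lower on induction. Besides Eif4g3, the smallest p was that of Mknk2, a kinase of the cap-binding protein, at 0.11 ± 0.12 log2. Between clones the list was led by Eif4e2, a cap-binding homologue, and Eif4ebp2, a repressor of the cap-binding protein, which differed in A3 by -0.31 log2 (limma adjusted p = 0.192) and -0.30 log2 (0.102). The list had 0 genes called in A3 and its median difference there was 0.035 log2.

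Of the 9 measured regulators of Pdcd4 and Eif4b, 2 were higher and 7 lower on induction, none past the test. Fbxw11, a paralogue of the ligase subunit that marks Pdcd4 for degradation, changed by 0.090 ± 0.098 log2 and the S6 kinase Rps6kb2 by -0.10 ± 0.11. Between clones the smallest p-values were those of Pim1, a kinase that phosphorylates Eif4b, at 0.29 log2 in A3 (limma adjusted p = 0.113), and Mtor, at -0.15 (0.433).

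Of the 7 measured partners of Eif4a3 and Eif4a2, 5 were higher and 2 lower on induction, with Casc3, an exon junction core protein, at -0.11 ± 0.13 log2 and the deadenylase Cnot8 at 0.11 ± 0.10. Cwc22, the splicing factor that hands Eif4a3 to the exon junction, was lower in A3. It read 8.91, 8.58 and 8.87 log2 in control and 9.06, 8.10 and 8.96 in induced arrays. A3 differed by -0.61 ± 0.14 log2 (SE, limma adjusted p = 0.0385), or by -0.31 (0.356) without the induced A3 array, which was the lowest of the 6, and -0.91 (0.0165) without the control A3 array. The F test over the clones did not call it (adjusted p = 0.105).

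Of the 6 other helicases of initiation and mRNA storage, 2 were higher and 4 lower on induction, with Ddx3x at -0.080 ± 0.19 log2 and Dhx36 at 0.043 ± 0.12. In A3, 5 of the 6 were lower and 1 was called. This was Ddx6, a helicase of repressed mRNA in processing bodies, which read 8.33, 8.03 and 8.53 log2 in control and 8.68, 7.68 and 8.44 in induced arrays. Its difference in A3 was -0.64 ± 0.14 log2 (limma adjusted p = 0.0324), or -0.40 (0.311) without the induced A3 array. Ddx3x, which unwinds structured leaders alongside eIF4A, differed in A3 by -0.43 ± 0.13 log2 and missed the threshold (adjusted p = 0.0768). Over the 4 lists, A3 called 2 of 34 genes, or 5.88%, both lower, against the 9.57% of all probe sets given above. These 34 are the brightest probe sets of their genes, whereas the 9.57% also covers dim probe sets, so the bases are unlike. A separate fit with 1 probe set per symbol called 2933 of 18193 in A3, but how many of the 34 it called is not given here.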

How the data were processed

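RNA of 3 clones, each with 1 control and 1 induced array, was measured on 6 Affymetrix mouse arrays. The authors deposited log2 signals computed with the RMA function of affy (version: not given in the sources used here) for 45101 probe sets, and no further normalization was applied. RMA draws the arrays to 1 distribution, so a shift shared by most genes is removed. The 64 control probe sets were left out, which left 45037; the annotation gave 1 symbol for 34945, several for 932 and none for 9160, and 34741 were matched to RefSeq genes (GRCm38.p6). Groups came from the sample titles. The members and lists were chosen with earlier results of these data known.

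Induced and control arrays were compared with limma 3.58.1 in R 4.3.3 (lmFit and eBayes, condition as the only term, two-sided, Benjamini-Hochberg over all probe sets, threshold 0.05). Clones were compared by the F test over clone in a fit of condition and clone, and by the contrast of each clone with the mean of the others. Within-array differences used the brightest probe set of each gene and an exact permutation test. The scripts were tested on simulated data. Replicate numbers pair arrays of the same clone: deviations from the group means correlated at r = 0.313 (A1), 0.670 (A3) and 0.290 (A4), although the A1 control array was closer to the induced A4 array (0.348) and the induced A1 array closer to the A4 control (0.369). The methods of the study name a t-test without a block, so the block was an alternative. Alternatives also covered filters, normalization, variance model, array weights, 1 probe set per symbol, a threshold of 0.1, the t-test, and leaving out arrays or clones; leaving out control replicate 3 with induced replicate 1 was added after seeing the data. All member probe sets were named; for likeness, the 2 genes with the highest r; in each pathway list, the 2 genes with the smallest p on induction and the 2 between clones. The number of arrays limits the precision. For induction without a block, p-values measure the spread between these clones. With the block, and in the tests between clones, they rest on the scatter left after condition and clone are fitted. There the control and the induced array of a clone stand in for its replicates, and the spread between clones is not in the error. Plots used matplotlib 3.10.9 in Python 3.11.15.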

Additional observations from a re-analysis of the deposited data

Results flagged for a closer look

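The brightest Eif4h probe set, 1438554_x_at, changed in opposite directions on induction in A1 (0.28 log2) and A3 (-0.21 log2), a gap of 0.492 log2 between clones that each moved by at least 0.2. Each clone has 1 array per condition, so the difference between the clones was not tested. The other Eif4h probe sets did not repeat it at this size, with changes in A1 and A3 of 0.083 and -0.061 log2 for 1416941_s_at and 0.035 and 0.0073 for 1451521_x_at. In 1447070_at and 1442942_at the clones were in the opposite order, at -0.029 and 0.16 and at 0.013 and 0.29, and the dim 1445746_at was at -0.23 and -0.60.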

How the results depend on the processing

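Counts of 0 members and 0 pathway genes called on induction held under all alternatives run, the replicate block included, which changed no call. Between clones 3 members were called by the F test with eBayes trend and robust, against 0. That setting called 3618 of 45037 probe sets. In A3 the count of 1 member (4309 of 45037 probe sets) became 5 with trend and robust (5431 of 45037). It was 4 at an adjusted p of 0.1 (6662 of 45037) or among probe sets brighter than the median (4525 of 22518). Without the condition term (5202 of 45037) it was 3. It was also 3 with a mean of at least 5 log2 (4515 of 23591) or array medians subtracted (4476 of 45037). With 1 probe set per symbol it was 2 of 6 (2933 of 18193). Quantile normalization again (4806 of 45037), cyclic loess (4666) and array weights (3876) gave 0. No member was called when arrays were left out, where fewer of all probe sets were called too. Pathway genes called by the F test were 1 at 0.1 (4060 of 45037 probe sets) and 2 with trend and robust (3618). With 1 probe set per symbol 1 was called (2001 of 18193). The count also moved when control replicate 2 was left out, but in no other fit that left out arrays. The cause was not tested. In all, 12 near-zero changes on induction took the other sign with all arrays kept. With array medians subtracted they were 0.015 (Eif4a1 1434985_a_at), 0.021 (Eif4a2), 0.013 (Eif4b 1426380_at), 0.023 (1426378_at) and 0.016 (1426379_at). With array weights they were -0.046 (Eif4h 1447070_at), 0.044 (Eif4a1 1434985_a_at), 0.018 (Eif4a2), 0.0030 (Eif4b 1426378_at) and 0.027 (1426379_at). Eif4h 1447070_at was -0.023 after quantile normalization and -0.019 after cyclic loess.

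Leaving out arrays moved the mean change of Eif4a1 minus Eif4a2 between -0.018 and 0.099 log2, of Eif4h minus Eif4a1 between -0.054 and 0.18, and of Eif4b minus Eif4a1 between -0.087 and 0.0046. Changes on induction that took either sign lay between -0.059 and 0.26 (Eif4h 1438554_x_at), -0.021 and 0.13 (1416941_s_at), -0.045 and 0.16 (1451521_x_at), -0.091 and 0.063 (1447070_at), -0.085 and 0.15 (1442942_at), -0.071 and 0.040 (Eif4a1 1434985_a_at), -0.15 and 0.092 (Eif4a2), -0.17 and 0.11 (Eif4b 1426380_at), -0.15 and 0.096 (1426378_at), -0.10 and 0.11 (1426379_at), and -0.18 and 0.019 (Pdcd4). For the pathway they were -0.0021 to 0.19 (Mknk2), -0.24 to 0.13 (Ddx3x) and -0.084 to 0.14 (Dhx36). The difference of Eif4a1 1434985_a_at in A3 lay between -0.15 and 0.00073. With pairs of the same clone, an exact sign-flip test, whose smallest p is 0.25, could not pass 0.05 for any within-array difference.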
